A study of Mus musculus with 8 samples.

Results

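The 10 genes described here, in embryonic mouse trachea, are a chosen set of Wnt ligands and genes that make ligands fit for export. Porcn and Wls serve secretion, and the ligands are Wnt2, Wnt2b, Wnt4, Wnt5a, Wnt5b, Wnt6, Wnt7b and Wnt11. All 10 were taken by name from the 23478 genes of the series' count tables, and every one of them is in both tables. The series held RNA-seq of tracheal tissue at E13.5 (embryonic day), when cartilage and airway muscle are being laid down, in 2 experiments. In whole trachea, 1 mutant library carried Wls flox/flox with ShhCre+, and 2 control libraries carried Wls flox/flox alone. In sorted tracheal cells, 2 mutant libraries carried Bmp4flox/flox with Foxg1Cre+ and γSMAeGFP, and 3 control libraries carried Bmp4flox/flox and γSMAeGFP without the Cre. ShhCre is driven from the Shh locus, which is active in airway epithelium, so the other cells of those tracheas keep their Wls alleles. The sorted cells were collected as negative for the epithelial surface protein Epcam and for the GFP reporter, here called γSMAeGFP, that marks smooth muscle. The labels do not say which tracheal cells Foxg1Cre recombines, whether embryos were pooled, or whether libraries came from separate embryos, so p-values measure only how far these libraries differ, which may be technical variation.

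Wnt proteins are short-range signals that need a lipid to work. In the endoplasmic reticulum, Porcn, an acyltransferase, attaches a monounsaturated fatty acid to a conserved serine of the ligand. Wls, a multipass carrier, binds the acylated ligand and takes it to the cell surface, then returns for reuse. At the receiving cell, ligands bind Frizzled receptors and act either through β-catenin or, for ligands such as Wnt5a and Wnt11, mostly through routes that shape cell movement and polarity. In the foregut, Wnt2 and Wnt2b of the mesenchyme are needed for lung and trachea to form, and Wnt7b is made by the airway epithelium.

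The coding sequence around the acylated serine is shown because it is the stretch on which Porcn and Wls both act, and because it shows how the 8 ligands pair off. Each line is 51 bases of coding sequence, read 5′ to 3′ from the GENCODE M21 transcripts of the GRCm38 genome, with the serine codon in capitals.
Wnt2: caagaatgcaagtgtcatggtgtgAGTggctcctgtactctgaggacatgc
Wnt2b: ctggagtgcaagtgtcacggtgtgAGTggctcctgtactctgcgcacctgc
Wnt4: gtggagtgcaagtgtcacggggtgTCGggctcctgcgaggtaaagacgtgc
Wnt5a: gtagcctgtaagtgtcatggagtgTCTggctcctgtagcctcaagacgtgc
Wnt5b: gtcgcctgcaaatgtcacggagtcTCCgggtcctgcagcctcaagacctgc
Wnt6: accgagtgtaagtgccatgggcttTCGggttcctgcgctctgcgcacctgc
Wnt7b: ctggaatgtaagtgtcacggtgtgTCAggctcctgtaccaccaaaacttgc
Wnt11: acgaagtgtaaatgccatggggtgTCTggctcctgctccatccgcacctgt
Each stretch lies within 1 coding exon. On the plus strand these are Wnt4 at chr4:137296333-137296383, Wnt5a at chr14:28522503-28522553, Wnt6 at chr1:74784160-74784210 and Wnt11 at chr7:98850248-98850298. On the minus strand they are Wnt2 at chr6:18008777-18008827, Wnt2b at chr3:104951205-104951255, Wnt5b at chr6:119433785-119433835 and Wnt7b at chr15:85537797-85537847. Of the 51 bases, 22 were identical in all 8 ligands. Wnt2 and Wnt2b shared 44 bases (86.3%) and both spell the serine AGT, while the other ligands use a TCN codon. Wnt5a and Wnt5b shared 42 bases (82.4%). The least alike pair was Wnt6 and Wnt7b, with 30 shared bases (58.8%).

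The whole-trachea libraries held 24596836 counts in the mutant and 27237573 and 31399982 counts in the controls, and the sorted libraries 12964287 and 15462780 counts in the mutants and between 48876948 and 55492747 counts in the controls. The sorted mutants stood apart from every other library in reads over genes that are otherwise silent. Only 919 and 955 genes had 0 counts in the Bmp4 mutants, against 5573 to 6080 genes in their controls. Olfactory and vomeronasal receptor genes, 1456 genes with no known use in trachea, took 2455 and 2203 CPM (counts per 1000000 counts of the library) in the Bmp4 mutants, against 10.9 to 14.8 CPM in their controls. Over 4334 genes with 0 counts in all 3 controls, the Bmp4 mutants averaged 21.1 and 19.5 counts per kilobase of transcript, which is called the background below. The sorted cells are labelled chondroblasts, early cartilage cells. Sox9, the transcription factor that starts cartilage, had 171 and 536 CPM in the mutants, against 1796, 1011 and 710 CPM in the controls. The cartilage collagen Col2a1 had 96.4 and 330.2 CPM in the mutants, against 1408, 818 and 811 CPM in the controls. The later matrix gene Matn1 went the other way, with a mean of 3.82 CPM in the mutants, and was at 0 in 2 controls. The part of the background in its mutant counts was not subtracted. Embryonic globin Hbb-y stood at 105298 and 914 CPM in the Bmp4 mutants, against 3.46, 7539 and 7226 CPM in their controls. Results in sorted cells are therefore given from the deposited counts and after subtracting the background of silent genes. Levels below are plain CPM, and log2 fold changes are mutant over control ± 1 SE from edgeR's quasi-likelihood fit, with p-values adjusted by the Benjamini-Hochberg method over all genes tested and called at 0.05.

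In Wls-mutant trachea, 5 of the 10 genes passed the test. Wls and Wnt5a fell, Wnt2, Wnt4 and Wnt7b rose, and Porcn, Wnt2b, Wnt5b, Wnt6 and Wnt11 did not pass. Of the 15815 genes tested, 4.27% passed (1.88% higher and 2.39% lower). The mutant arm is a single library, so its spread was assumed to be like that of the controls. With 1 residual degree of freedom, the fit takes each gene's spread largely from other genes. SE and p-values in trachea therefore do not measure a gene's own spread between replicates. The median log2 fold change was -0.02 over the 10 genes and -0.01 over all genes tested. The ligands summed to 427 CPM in the mutant, against 362 and 360 CPM in the controls. Wnt7b sets that direction: without it the other ligands summed to 212 CPM in the mutant, against 222 and 234 CPM in the controls.

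**Figure D1:**
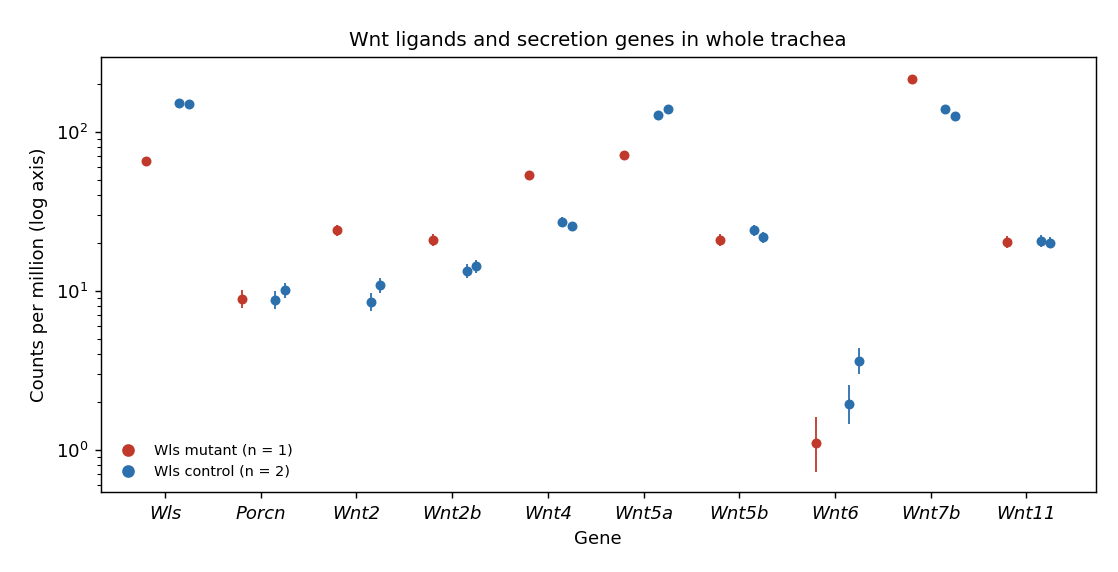
Level of each gene in whole trachea, in CPM on a log axis; red is the Wls mutant library, blue the control libraries, and bars are exact 95% Poisson intervals that cover counting error only. Wls, Wnt5a, Wnt5b and Wnt6 sit below both controls in the mutant, and Wnt2, Wnt2b, Wnt4 and Wnt7b above them. Of these, Wnt2b, Wnt5b and Wnt6 did not pass the test. Among all genes tested, 74.2% lay outside the range of the controls.

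Wls, on chromosome 3 at 159839672 to 159938664 of GRCm38 (plus strand), is the gene floxed in this experiment. It had 65.3 CPM in the mutant, against 151 and 149 CPM in the controls, so the mutant lay below both controls. The difference was 2.27-fold (log2 fold change -1.19 ± 0.18, adjusted p = 2.23e-07). Reads are counted over the whole gene, so a transcript that lacks only the floxed part would still be counted. Porcn, on the X chromosome, had 8.90 CPM in the mutant, against 8.77 and 10.1 CPM in the controls. Its mutant value lay between the controls (log2 fold change -0.06 ± 0.26, adjusted p = 0.956).

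Wnt7b, on chromosome 15 at 85535437 to 85582473 (minus strand), was the most abundant ligand of trachea per kilobase of transcript. It reached 215 CPM in the mutant, against 139 and 126 CPM in the controls (log2 fold change 0.71 ± 0.17, adjusted p = 0.00285). Wnt4, on chromosome 4 at 137277489 to 137299726, had 53.8 CPM in the mutant, against 27.1 and 25.4 CPM in the controls. That was 2.07-fold higher (log2 fold change 1.05 ± 0.18, adjusted p = 2.65e-06). Both genes lay above each control. Airway epithelial markers moved with them: of 22 markers, all tested, 11 were higher and 2 lower, with a median log2 fold change of 0.57, and none was at 0 in any of the 3 libraries. Their summed level was 1694 CPM in the mutant, against 1220 and 1047 CPM in the controls. Epcam, the epithelial adhesion protein, had 247 CPM in the mutant, against 139 and 114 CPM in the controls (log2 fold change 0.97 ± 0.17, adjusted p = 1.08e-05). Sox2 (0.98 ± 0.17, adjusted p = 4.77e-06) and Foxa2 (0.88 ± 0.17, adjusted p = 0.00011), transcription factors of airway epithelium, were also higher, while the keratins Krt5 (-1.34 ± 0.25, adjusted p = 3.94e-05) and Krt19 (-0.63 ± 0.19, adjusted p = 0.0353) were lower. Krt19 falls outside the rule for named genes and was added after its value was seen. In bulk tissue, more cells of a type and more RNA per cell cannot be told apart.

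Set against single epithelial markers, the ligands did not keep one ratio. Per CPM of Epcam, Wnt7b was 0.873 in the mutant, against 1 and 1.10 in the controls. Per CPM of Cdh1, the epithelial cadherin, it was 1.57 in the mutant, against 1.074 and 1.197 in the controls. Per CPM of Nkx2-1, the lung and trachea transcription factor, it was 2.39 in the mutant, against 2.13 and 2.17 in the controls. So Wnt7b was below the controls by one marker and above them by the others. Wnt4 per CPM of Epcam was 0.218 in the mutant, between the control ratios of 0.194 and 0.222. By the other markers Wnt4 was above both controls, at 0.393 per CPM of Cdh1 in the mutant, against 0.208 and 0.242 in the controls, and at 0.596 per CPM of Nkx2-1 in the mutant, against 0.414 and 0.439 in the controls. Per CPM of the keratin Krt8 it was 0.381 in the mutant, against 0.221 and 0.237 in the controls. Wls per CPM of Epcam went the other way, at 0.264 in the mutant, against 1.08 and 1.31 in the controls. These ratios are descriptions, and the part of the epithelial share in the Wnt7b and Wnt4 results was not tested further.

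Wnt2, a ligand of lung and tracheal mesenchyme on chromosome 6 at 17988940 to 18030585 (minus strand), had the largest rise of the 10. Its level was 24.0 CPM in the mutant, against 8.55 and 10.9 CPM in the controls. The rise was 2.50-fold (log2 fold change 1.32 ± 0.21, adjusted p = 7.24e-07). Of the mesenchymal lists, fibroblast markers had 1 higher and 2 lower of 12 tested, with summed levels of 10654 CPM in the mutant and 10583 to 13346 CPM in the controls. Smooth muscle markers had 3 higher and none lower of 12 tested, with summed levels of 3260 CPM in the mutant and 2133 to 2421 CPM in the controls, and of 6 skeletal muscle markers 5 were higher and none lower, with a median log2 fold change of 0.90 and summed levels of 497 CPM in the mutant and 379 to 506 CPM in the controls. Endothelial markers had 2 lower and none higher of 8 tested, and neural markers 2 higher and none lower of 8. The part of these cell types in the Wnt2 result was not tested. Wnt2b, its closest relative by the stretch shown above, had 20.8 CPM in the mutant, against 13.3 and 14.2 CPM in the controls. It too lay above both controls, but the difference did not pass (log2 fold change 0.61 ± 0.21, adjusted p = 0.0753).

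Wnt5a, on chromosome 14 at 28504750 to 28527448 (plus strand), was the ligand that fell. It had 71.1 CPM in the mutant, against 127 and 138 CPM in the controls, 1.84-fold lower (log2 fold change -0.88 ± 0.18, adjusted p = 0.000202). Its relative Wnt5b had 20.9 CPM in the mutant, against 24.0 and 21.7 CPM in the controls (log2 fold change -0.11 ± 0.20, adjusted p = 0.877). The pair thus differed in their calls, and the difference between them was not tested. Cartilage markers were lower in the same library: 10 of the 15 tested fell and none rose, with summed levels of 763 CPM in the mutant and of 2056 and 1810 CPM in the controls. Of the cartilage markers, Matn1, a cartilage matrix protein, was at 0 in one of the controls. The part of the cartilage cells in the Wnt5a result was not tested.

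Wnt11, which in other tissues signals without β-catenin, had 20.3 CPM in the mutant, against 20.6 and 20.03 CPM in the controls. The mutant lay between the controls (log2 fold change 0.02 ± 0.20, adjusted p = 0.986). Wnt6 was the scarcest of the 10. It had 27 counts in the mutant (1.10 CPM, exact 95% Poisson interval 0.723 to 1.60), against 53 and 114 counts (1.95 and 3.63 CPM) in the controls. The controls were farther from each other than the lower control was from the mutant, and the test was not passed (log2 fold change -1.32 ± 0.49, adjusted p = 0.112). In all, 8 of the 10 genes lay outside the range of the controls, 4 above and 4 below, where 74.2% of all genes tested did so (35.3% above and 38.9% below).

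Levels can be compared between genes only per length, here CPM per kilobase of the longest transcript paired with a RefSeq entry. In the Wls mutant the order ran Wnt7b 63.3, Wls 18.3, Wnt4 12.8, Wnt2 10.6, Wnt5a 10.1, Wnt5b 8.83, Wnt2b 6.26, Wnt11 5.89, Porcn 4.73 and Wnt6 0.530 CPM per kilobase. In control trachea it ran Wls 42.2, Wnt7b 39.0, Wnt5a 18.9, Wnt5b 9.64, Wnt4 6.26, Wnt11 5.89, Porcn 5.002, Wnt2 4.30, Wnt2b 4.15 and Wnt6 1.35 CPM per kilobase (means, n = 2). In the controls the neighbours Porcn and Wnt2, and Wnt2 and Wnt2b, overlapped between libraries, and all other neighbours were apart. Wnt4 thus stood above Wnt5a per kilobase in the 1 mutant library and below it in both controls.

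Of the genes around the secretory route, 1 passed the test in trachea. Among 19 tested genes for Wnt trafficking or inactivation, which cover the retromer that recycles Wls, the glypicans that hold Wnt at the cell surface, and the desaturases that make the fatty acid, 18 did not pass and 1 fell; their median log2 fold change was 0.05. The exception was Notum, a secreted enzyme that strips the fatty acid from Wnt proteins and is itself induced by β-catenin signalling. It had 7.36 CPM in the mutant, against 25.4 and 24.2 CPM in the controls (log2 fold change -1.74 ± 0.23, adjusted p = 3.80e-10). Of 18 β-catenin target genes, which include Notum, 16 were tested, 2 were higher and 4 lower, with a median log2 fold change of -0.39. Besides Notum, the largest changes were in Sp5 (1.98 ± 0.49, adjusted p = 0.00367), Lgr5 (1.05 ± 0.24, adjusted p = 0.00133) and Lef1 (-0.88 ± 0.22, adjusted p = 0.00434). Lef1 is a transcription factor that β-catenin binds, Sp5 a transcription factor and Lgr5 a receptor for R-spondins. Also lower, and added after their values were seen, were Axin2 (-0.76 ± 0.19, adjusted p = 0.00463) and Tcf7 (-0.85 ± 0.20, adjusted p = 0.00152). Targets thus went both ways, with more called lower than higher. Sp5 was scarce, with 76 counts in the mutant, against 24 and 22 counts in the controls. Of the 11 other Wnt genes, 6 were tested and edgeR called 0 of them, with 2 at an unadjusted p under 0.05. DESeq2 gave an adjusted p to 1 of them and did not call it. Of the 11, Wnt9a was the one above 1 CPM on average, with 9.64 CPM in the mutant, against 10.3 and 7.52 CPM in the controls. Bmp4, the gene deleted in the second experiment, had 30.6 CPM in the Wls mutant, against 49.9 and 50.3 CPM in the controls (log2 fold change -0.69 ± 0.19, adjusted p = 0.0107).

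In sorted Bmp4-mutant cells, Bmp4 itself stood at 25.5 and 36.7 CPM, against 114, 92.01 and 117 CPM in the controls (log2 fold change -2.03 ± 0.20, adjusted p = 0.0033). Of the 10 Wnt genes, 4 passed the test on the deposited counts. Wls and Wnt5a fell, Wnt4 and Wnt7b rose, and Porcn, Wnt2, Wnt2b, Wnt5b, Wnt6 and Wnt11 did not pass. Of the 21665 genes tested, 54.9% passed (39.3% higher and 15.6% lower), so 4 of 10 is no more than the share among all genes. The median log2 fold change was 0.55 over the 10 genes and 0.53 over all genes tested. The share of the called genes that were higher was 71.6%, and 89.5% when the scaling came only from genes above the background, which moved the median of all genes up by 0.31. After the background was subtracted, 6 of the 10 genes were left to test, and edgeR called 0 of them, with 3 at an unadjusted p under 0.05. In that fit 4.95% of 11359 genes passed. Subtraction removed counts from the mutants only, but it also changed the scaling between libraries. The log2 fold changes of the 6 genes all moved upward with it.

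**Figure D2:**
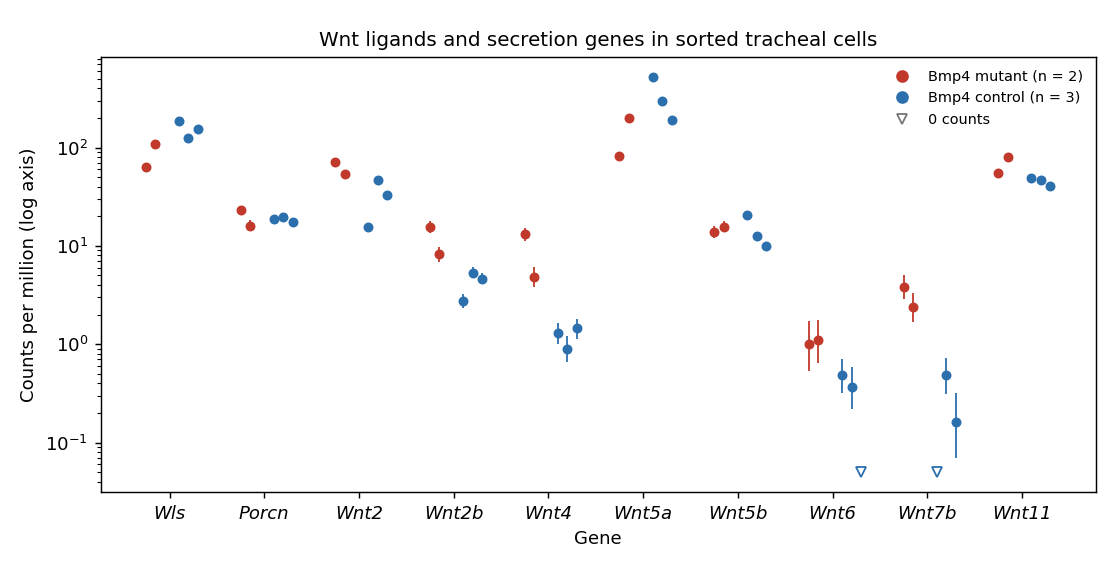
Level of each gene in sorted cells, in CPM on a log axis; red is the 2 Bmp4 mutant libraries, blue the 3 control libraries, open triangles mark 0 counts, and bars are exact 95% Poisson intervals. Wls lies below the controls in both mutants, while Wnt5a overlaps them.

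Wls had 62.8 and 109 CPM in the Bmp4 mutants, against 186, 126 and 156 CPM in the controls. Both mutants lay below every control, and the first was the lower of the pair (log2 fold change -1.10 ± 0.26, adjusted p = 0.0104). An even background would give 9.21% and 4.11% of the 814 and 1687 counts in the mutants. With the background subtracted, which also rescaled the libraries, the log2 fold change was -0.70 ± 0.25 and the adjusted p 0.148. Scaled on genes above background with nothing subtracted, Wls was at -0.79 (edgeR adjusted p = 0.0254). Taking counts from the mutants would by itself make the fall larger, so the smaller fall reflects the scaling. Without the first mutant, the Wls log2 fold change on deposited counts was -0.81 (adjusted p = 0.0685), so the call rests on that library. Porcn had 22.9 and 16.1 CPM in the mutants, against 18.7, 19.4 and 17.4 CPM in the controls, with the mutants on either side of the controls. Its log2 fold change was -0.14 ± 0.26 (adjusted p = 0.665) on deposited counts and 0.16 ± 0.30 (adjusted p = 0.776) after subtraction.

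Wnt5a was the ligand with the highest mean level per kilobase in the sorted controls. It had 82.7 and 200.4 CPM in the mutants, against 516, 295 and 191 CPM in the controls. The second mutant lay above the lowest control, so the groups overlapped. The difference passed on deposited counts (log2 fold change -1.50 ± 0.50, adjusted p = 0.0379). It did not pass after subtraction (-1.13 ± 0.52, adjusted p = 0.232), with the scaling from genes above background (-1.19, adjusted p = 0.0655), or without either mutant or without the first or second control (adjusted p of 0.0518 to 0.202). The summed level of cartilage markers was also lower in the mutants and highest in the first control. It was 774 and 1880 CPM in the mutants, against 5954, 3692 and 2864 CPM in the controls. Of 16 cartilage markers tested, 7 fell and 3 rose, beside 15.6% lower and 39.3% higher among all genes. On deposited counts, the 3 that rose were Matn1 (log2 fold change 5.89 ± 1.41, adjusted p = 0.0107), Matn3 (5.08 ± 0.59, adjusted p = 0.0033) and Comp (4.68 ± 0.65, adjusted p = 0.0033). They averaged 3.82, 12.9 and 4.36 CPM in the mutants, and Matn1 was at 0 in 2 controls. The part of the even background in these mutant counts was not subtracted, so whether the 3 genes rose beyond it was not tested. The part of cartilage cells in the Wnt5a result was not tested. Wnt5b had 13.9 and 15.7 CPM in the mutants, against 20.7, 12.6 and 10.1 CPM in the controls, and the groups overlapped (log2 fold change -0.20 ± 0.37, adjusted p = 0.661). After subtraction it was -0.08 ± 0.39 (adjusted p = 0.924).

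Wnt2 had 71.4 and 53.9 CPM in the mutants, against 15.4, 46.3 and 32.9 CPM in the controls. Both mutants lay above every control, but the controls differed widely among themselves and the test was not passed (log2 fold change 0.78 ± 0.41, adjusted p = 0.147). After subtraction it was 1.21 ± 0.46 (adjusted p = 0.167). Wnt11 had 54.9 and 80.2 CPM in the mutants, against 49.6, 46.9 and 40.3 CPM in the controls. It too lay above every control without passing (log2 fold change 0.33 ± 0.19, adjusted p = 0.175), and after subtraction it was 0.71 ± 0.18 (adjusted p = 0.0778). Scaled on genes above background, Wnt11 did pass (0.64, adjusted p = 0.0182). Of 12 fibroblast markers 5 rose and 1 fell, close to the 39.3% called higher among all genes, with a median log2 fold change of 0.48, against 0.53 over all genes, and summed levels of 13177 to 16170 CPM in the mutants and 7078 to 10466 CPM in the controls. Of 12 smooth muscle markers 8 rose and none fell. They summed to 1938 CPM in the first mutant and 505 CPM in the second, against 293 to 345 CPM in the controls. Actg2, the gene behind the reporter's gate, averaged 110 CPM in the mutants with an SD of 128 CPM. Mesothelial markers summed to 335 and 91.4 CPM in the mutants, against 21.4 to 128 CPM in the controls. Skeletal muscle markers summed to 202 and 33.2 CPM in the mutants, against 81.5 to 283 CPM in the controls. The mutants thus differed from each other in these markers. Endothelial markers (2 of 8 higher) summed to 201 to 236 CPM in the mutants and 52.3 to 120 CPM in the controls, and neural markers (3 of 8 higher, 1 lower) to 620 to 763 CPM in the mutants and 302 to 488 CPM in the controls. The part of these cell types in the Wnt2 and Wnt11 values was not tested. Wnt2 and Wnt11 were well above the background, which would give at most 47.5 of the Wnt2 counts and 72.7 of the Wnt11 counts, where 833 to 926 and 712 to 1240 were found.

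The remaining ligands stood near the level of silent genes in the Bmp4 mutants. Wnt4 had 13.2 and 4.85 CPM in the mutants, against 1.30, 0.900 and 1.45 CPM in the controls (log2 fold change 2.69 ± 0.61, adjusted p = 0.00879). Its 171 and 75 counts in the mutants compare with 88.4 and 81.7 counts from an even background, so the second mutant held no more than that. Per kilobase, Wnt4 was above 81.3% of the silent genes in the first mutant and above 56.3% in the second. Without the first mutant the Wnt4 difference did not pass (log2 fold change 1.70, adjusted p = 0.134).

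Wnt7b, the epithelial ligand, had 50 and 37 counts (3.86 and 2.39 CPM) in the mutants, against 0, 24 and 8 counts (0, 0.491 and 0.161 CPM) in the controls. The 0 allows up to 0.0541 CPM. The difference passed (log2 fold change 3.62 ± 1.30, adjusted p = 0.0486), yet an even background would give 71.6 and 66.3 counts, more than were found. Wnt7b lost its call without either mutant or control 3 (adjusted p of 0.0952 to 0.263). Of 20 epithelial markers tested in these Epcam-negative sorts, 11 were called higher and none lower, beside 39.3% higher among all genes, with summed levels of 176 to 262 CPM in the mutants and 90.7 to 108 CPM in the controls, and Krt5 and Shh were at 0 in all controls. Epcam was at 5.71 and 7.76 CPM in the mutants, against 2.02, 0.307 and 1.35 CPM in the controls. Of the 11 called markers, 9 in each mutant were at or under the 90th percentile of silent genes in counts per kilobase, among them Foxa1, Foxa2 and Cldn4 below the even background in both. The part of epithelial RNA in the Wnt4 and Wnt7b results was not tested. Wnt6 had 13 and 17 counts (1.003 and 1.10 CPM) in the mutants, against 27, 18 and 0 counts (0.487, 0.368 and 0 CPM) in the controls. Its counts in the mutants were under the 43.6 and 40.4 of an even background, and the test was not passed (log2 fold change 1.62 ± 1.27, adjusted p = 0.305).

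Wnt2b lay between these cases. It had 15.4 and 8.21 CPM in the mutants, against 2.74, 5.36 and 4.65 CPM in the controls, with both mutants above every control. The difference did not pass with edgeR on deposited counts (log2 fold change 1.27 ± 0.49, adjusted p = 0.0601), and it passed with DESeq2 (1.32, adjusted p = 0.0274) and with the scaling from genes above background (1.59, adjusted p = 0.0331). An even background would give 69.9 and 64.7 of its 200 and 127 counts. Taken off, that left 10.03 and 4.03 CPM in the mutants, so the second mutant then lay within the range of the controls. In all, 7 of the 10 genes did not overlap between the groups on deposited counts, 6 higher and 1 lower, where 69.1% of all genes tested did not overlap (53.3% higher and 15.8% lower).

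**Figure D3:**
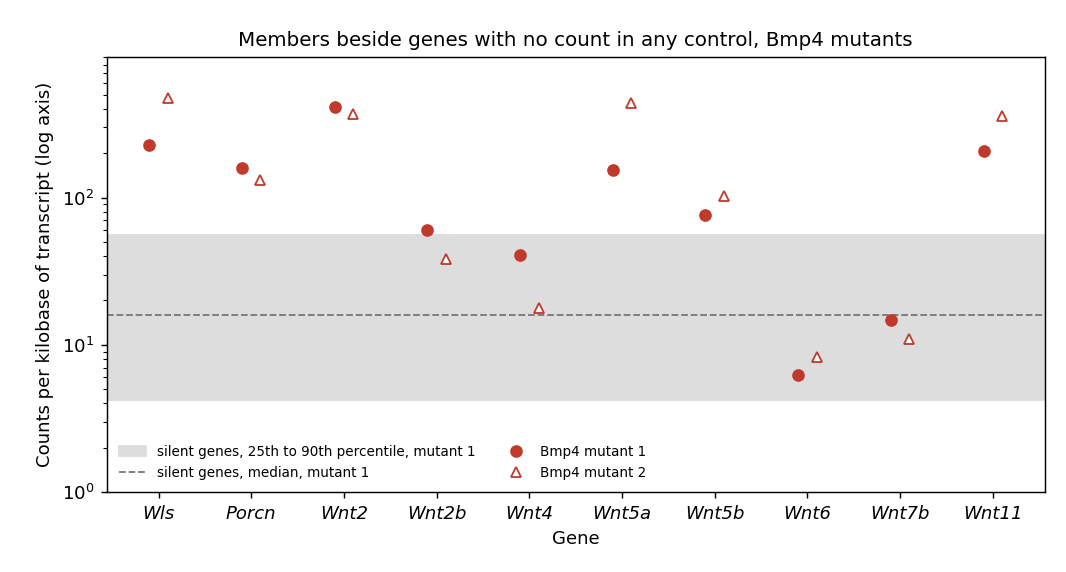
Counts per kilobase of transcript, on a log axis, of each gene in the 2 Bmp4 mutant libraries; the grey band and dashed line give the 25th to 90th percentile and the median of 4334 genes with 0 counts in all controls, for the first mutant. Wnt4, Wnt6 and Wnt7b lie inside the band in both mutants, and Wnt2b in the second.

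By density, 3 of the 10 genes in the first mutant (Wnt4, Wnt6 and Wnt7b) and 4 in the second (with Wnt2b) were at or under the 90th percentile of silent genes, which was 55.4 and 52.9 counts per kilobase. The other Wnt genes were there in greater part, at 10 and 9 of 11. Those 11 were all tested in sorted cells and 9 were called higher: Wnt1, Wnt3, Wnt3a, Wnt7a, Wnt8a, Wnt8b, Wnt9b, Wnt10b and Wnt16. Their means in the mutants ran between 2.25 and 9.50 CPM, and 4 of them had 0 counts in all controls. Those 4 are thus among the silent genes against which they were ranked. Wnt3 and Wnt8b, at the top of that range, are listed with equal counts in the mutants (160 and 103 each), and whether these are separate measurements was not tested. Wnt9a, the one above that percentile in both mutants, had 17.5 and 27.8 CPM in the mutants, against 9.46, 16.9 and 8.13 CPM in the controls, and was not called (log2 fold change 0.74 ± 0.39, adjusted p = 0.145). Wnt10a was not called either (1.11 ± 0.84, adjusted p = 0.288).

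Per kilobase, the order in the Bmp4 mutants was Wnt2 27.8, Wls 24.1, Wnt5a 20.2, Wnt11 19.6, Porcn 10.4, Wnt5b 6.24, Wnt2b 3.56, Wnt4 2.15, Wnt7b 0.919 and Wnt6 0.508 CPM per kilobase (means, n = 2). In the sorted controls it was Wnt5a 47.7, Wls 43.8, Wnt2 13.98, Wnt11 13.2, Porcn 9.83, Wnt5b 6.10, Wnt2b 1.28, Wnt4 0.290, Wnt6 0.138 and Wnt7b 0.0639 CPM per kilobase (means, n = 3). In the mutants the first 4 overlapped with their neighbours between libraries, as did Wnt2b and Wnt4. In the controls the overlapping neighbours were Wnt5a and Wls, Wnt2 and Wnt11, Wnt4 and Wnt6, and Wnt6 and Wnt7b. Wnt7b led the ligands in control trachea and was the lowest of them in sorted control cells, a gate without Epcam-positive epithelium. The kits differed between the experiments, so no test was made across them.

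Genes around the secretory route were called in both directions in sorted cells. Of the 19 tested, 2 rose and 5 fell, with a median log2 fold change of -0.40. Among all genes tested, 39.3% were called higher and 15.6% lower, with a median log2 fold change of 0.53. That median depends on genes near the background: after subtraction it was -0.02 over 11359 genes. Scaling on genes above background moved the median of all genes up by 0.31. The 19 genes were not read in either of those fits, so a fall particular to them was not tested. The largest changes were in Trabd2b, a protease that cuts Wnt proteins (1.06 ± 0.37, adjusted p = 0.0432), the glypicans Gpc4 (0.999 ± 0.17, adjusted p = 0.0034) and Gpc6 (-0.81 ± 0.18, adjusted p = 0.00759), and the desaturase Scd2 (-0.71 ± 0.21, adjusted p = 0.0257). These values are from the deposited counts. Trabd2b averaged 19.4 CPM in the mutants and 7.99 CPM in the controls, and the part of the even background in its mutant counts was not subtracted. Notum had 13.9 and 24.2 CPM in the mutants, against 106, 33.6 and 11.9 CPM in the controls. That difference missed the threshold (log2 fold change -1.67 ± 0.83, adjusted p = 0.127). Of the 18 β-catenin targets, all tested, 5 were called higher and 2 lower, with a median log2 fold change of 0.38, against 0.53 over all genes. The 4 with the largest fitted changes were higher: Cdx2, T, Prdm1 and Lgr5. Of the 5 called higher, 3 in each mutant (Cdx2, T and Prdm1) were at or under the 90th percentile of silent genes. Cdx2 had 33 and 23 counts in the mutants and 0 in all controls, where an even background would give 47.6 and 44.1 counts. Cdx2 is thus itself among the silent genes. Lgr5 had 20.4 and 21.6 CPM in the mutants, against 4.29, 3.74 and 4.14 CPM in the controls (log2 fold change 2.14 ± 0.30, adjusted p = 0.0033). The 2 that fell, added after their values were seen, were Lef1 (-1.31 ± 0.25, adjusted p = 0.00479) and the cyclin Ccnd1 (-1.55 ± 0.41, adjusted p = 0.0159).

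**Figure D4:**
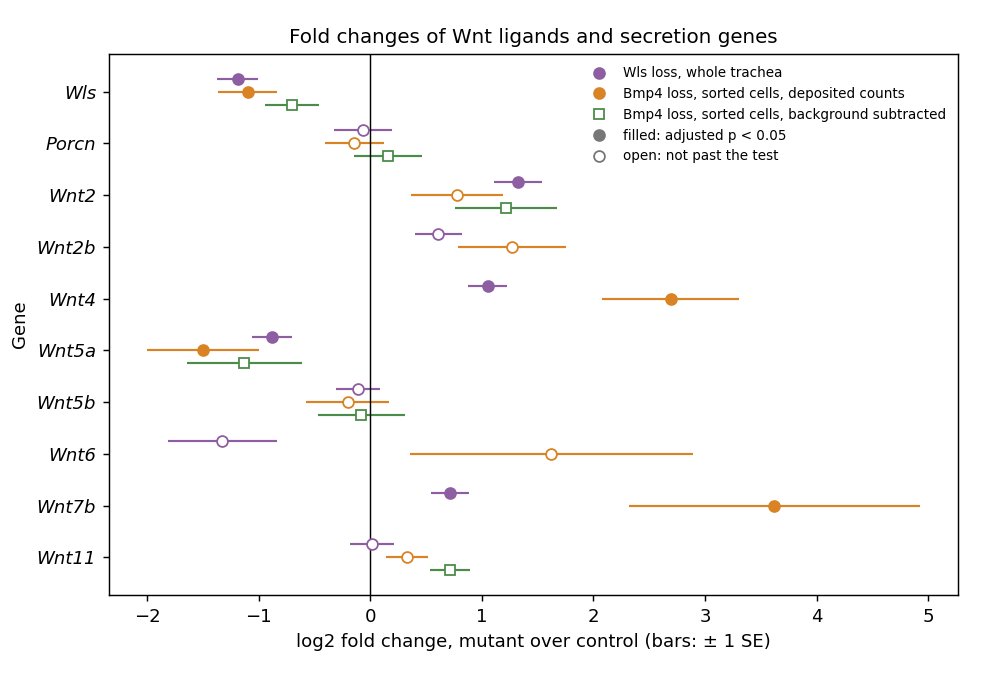
Log2 fold changes of the 10 genes, mutant over control, with bars of 1 SE; filled points passed an adjusted p of 0.05, and squares give sorted cells after background subtraction, where 6 genes could be tested. Wls and Wnt5a are below 0 in all 3 fits.

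Set side by side, Wls and Wnt5a were called lower, and Wnt4 and Wnt7b higher, in each experiment on the deposited counts. The experiments share no libraries. In trachea all of these calls held with DESeq2, other size factors and no filter. In sorted cells Wls and Wnt5a kept a negative log2 fold change in every fit tried, but Wls passed in 8 and Wnt5a in 4 of 11 alternative fits. Wnt4 and Wnt7b could not be tested once the background was taken off. Wnt7b in both Bmp4 mutants, and Wnt4 in the second, held fewer counts than an even background would give. Of all genes tested, 54.9% were called in sorted cells (39.3% higher and 15.6% lower), against 4.27% in trachea. Wnt2 was called higher in Wls-mutant trachea (1.32 ± 0.21) and was not called in Bmp4-mutant cells (0.78 ± 0.41).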

How the data were processed

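RNA-seq counts per gene were deposited by the authors in 2 tables, raw and not normalized: 3 libraries of whole trachea and 5 of sorted cells. Per the submitters' processing notes, Bowtie2, Cufflinks, DESeq and the mm10 genome were used, with Trim Galore for the sorted cells; the sources used here do not name the counting program, its strand setting or its annotation. Per the labels' protocols, whole trachea was amplified with Ovation RNA-Seq System v2 and sorted cells with SMART-Seq v4, both followed by Nextera XT, so amplified reads are not independent molecules, and intervals and the limit of 3 counts behind a 0 cover counting error only.

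Each table was fitted on its own with edgeR 4.0.16 in R 4.3.3 (TMM, filterByExpr, quasi-likelihood F test, Benjamini-Hochberg over all genes tested, called at 0.05), with 1 residual degree of freedom in trachea and 3 in sorted cells; DESeq2 1.42.0 was an alternative. SE is the absolute log2 fold change over the square root of F. CPM is the count over the library total, times 1000000. Lengths are of the longest GENCODE M21 transcript paired with a RefSeq entry. Background was the mean rate per kilobase over 4334 genes with 0 counts in the 3 sorted controls; it was subtracted, and genes whose mean CPM was at least 5 times the expected background were tested. Replicate libraries differed by more than sampling noise (chi-square per degree of freedom 23.4 to 184), and each was counted on its own. On opposite strands, Wnt5a, Wnt7b and Wnt11 share 358, 324 and 364 exonic bases with Gm2670, AU022754 and the pseudogene Gm8398, whose reads could be mixed with theirs. The code was tested on simulated data.

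All 10 genes are named in each comparison; of other Wnt genes, those with a mean of at least 1 CPM in a group; of other lists, at most the 4 largest changes past the test, plus Bmp4, Wls, Epcam and Actg2. Actg2, the gene behind the reporter's gate, had 200.5 and 19.5 CPM in the Bmp4 mutants, against 4.58, 4.71 and 6.82 CPM in their controls, and 300.7 CPM in the Wls mutant, against 263 and 224 CPM in its controls. The genes and lists were chosen with earlier results of these data known.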

Additional observations from a re-analysis of the deposited data

How the results depend on the processing

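In trachea, the 5 calls were kept by RLE size factors, by DESeq2 and without the filter on low counts, while DESeq2 called 259 genes in all, against 676 with edgeR. Leaving out a control there leaves 1 library against 1 and no test; the log2 fold changes of the 5 called genes kept their direction. In sorted cells, RLE, DESeq2 and no filter called 4 or 5 of the 10 genes. Leaving out 1 library gave between 0 and 3 of the 10 genes and between 3595 and 10478 genes in all, against 4 and 11888: without the first mutant 0 of the 10 (2 at an unadjusted p under 0.05) and 3595 genes, and without the second 2 and 7829. Subtracting the background gave 0 of 6 genes and 562 in all. Porcn, -0.14 and not called, ran between -0.50 and 0.14 when 1 library was left out (0.14 without the second mutant), and was 0.16 with the background subtracted and 0.18 with the scaling from genes above background. Wnt5b, -0.20 and not called, ran between -0.42 and 0.17 when 1 library was left out (0.17 without the first control), and was 0.12 with that scaling. With the replicate number as a block, edgeR called 0 of the 10 genes (3 at an unadjusted p under 0.05) and 4 genes in all (9833 at an unadjusted p under 0.05). The labels do not say that equal numbers mark a shared source. Deviations of same-numbered libraries from their group means had correlations of -0.17 and -0.11 over only 2 pairs. With 2 mutants these deviations mirror each other, so the correlations are not independent and cannot decide whether a source was shared. In trachea, no paired analysis was possible because the labels of mutant and controls share fewer than 2 numbers. Depth limits Wnt6, with 27 counts in the Wls mutant library, and both Wnt6 and Wnt7b in sorted cells, where no library held more than 50 counts of either.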
